A study of Homo sapiens and Mus musculus with 30 samples.

Results

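The 31 genes described here are conserved targets of the let-7 microRNA family other than the best known ones, taken from a list of gene symbols that was drawn up with earlier results of these data known. The table of the let-7a transfection lists 57820 genes and holds all 31. The table of HEK293A cells holds 25 of them among 11342 genes, and the table of NIH3T3 cells holds all 31 among 41128 rows, of which 20 passed the filter of a mean of at least 1 RPKM (read counts scaled by gene length and by library size). MYCN, CCND1, CCND2, TRIM71, PXDN and GATM are not in the HEK293A table, where every gene reached 1 RPKM in all 5 total RNA libraries, so they have no HEK293A comparison.

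The study measured polyadenylated total RNA and polysome RNA, the RNA bound to several ribosomes at once, at 5 levels of the RNA-binding protein LIN28B, named X0 to X4. HEK293A cells derive from human embryonic kidney, NIH3T3 cells from mouse embryo fibroblasts. The series text describes X0 as a knockout of LIN28B and X1 to X4 as rising levels, and the protocol gives a transgene induced with doxycycline at 10 ng/ml in cells grown in medium with 10% serum. The libraries used here were HEK293A X0 given mature let-7a at 10 nM with the lipid RNAiMAX, HEK293A X0 without let-7a, HEK293A X1, X2, X3 and X4, and NIH3T3 X0 to X4, each as 1 total RNA and 1 polysome RNA library. Small RNA came from 8 further HEK293A libraries, total or bound to AGO2, from knockout and X3 cells labelled let-7 or wt. The titles of the NIH3T3 samples name no knockout, the labels name no promoter or clone, and no library labelled as mock-transfected was used. The series text gives 2 replicates of each RNA library, whereas the tables have 1 column for each, and no source used here says whether that column pools them.

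let-7 microRNAs are short RNAs that guide Argonaute proteins to messenger RNAs, whose translation and stability they lower. LIN28 proteins bind the let-7 precursors and block their maturation, and let-7 in turn targets LIN28 transcripts. Many let-7 targets act in growth, the cell cycle and early development, and mature let-7 rises as cells differentiate. LIN28B also binds messenger RNAs directly.

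A microRNA finds its targets mainly through its seed, bases 2 to 8. The transfected species and 3 relatives are shown to let the seed, in capitals, be set against tails that differ.
let-7a-5p: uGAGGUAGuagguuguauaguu
let-7d-5p: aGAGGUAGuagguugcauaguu
let-7i-5p: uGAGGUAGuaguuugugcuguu
miR-98-5p: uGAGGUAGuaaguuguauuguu
These are RefSeq sequences on GRCh38.p14, written 5′ to 3′. The first copy of let-7a lies at chr9:94175962-94175983 on the plus strand, let-7d at chr9:94178841-94178862 on the plus strand, let-7i at chr12:62603691-62603712 on the plus strand and miR-98 at chrX:53556299-53556320 on the minus strand. The same seed was found in 11 mature microRNAs of the 2370 in the RefSeq table, and its perfect match in a target reads CUACCUC.

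The let-7a total RNA library held 35625347 reads and its polysome library 7567151, as recovered from the RPKM steps. The HEK293A libraries of X0 to X4 held 38041419 to 56576674 reads of total RNA and 9154439 to 14704269 of polysome RNA, and the NIH3T3 libraries held 15932358 to 25006225. LIN28B total RNA was 1.41 RPKM in the let-7a library, and 3.60, 23.0, 33.4, 81.2 and 208 RPKM at X0, X1, X2, X3 and X4 in HEK293A. The level at X0 was above 0, so transcript reads remained in the library labelled a knockout. Of the 6 markers of HEK293 cells, 4 were in the HEK293A table and PAX2 and NEFM were not, and none of the 5 markers of blood, endothelium or liver was. All 7 fibroblast markers were above 12 RPKM in every NIH3T3 total RNA library, whereas markers of other cells reached at most 0.733 RPKM. In small RNA, features of the let-7 family held 5 of 140139 and 4 of 73083 counts in the knockout AGO2-bound and total libraries labelled let-7. They held 3 of 95887 and 2 of 86951 counts in the corresponding X3 libraries labelled let-7. They held 0 counts in the 4 libraries labelled wt, which allows shares of up to 0.00173% to 0.00238% of the counts in this table. Since libraries labelled let-7 held only 2 to 5 such counts, the table may miss let-7, and these limits say nothing firm about let-7 in the cells.

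In HEK293A total RNA, most targets lay above X0 already at X1, the first LIN28B level above X0. Total RNA was higher at X1 than at X0 in 22 of the 25 measured targets, where 53.1% of all genes were. All 4 levels X1 to X4 lay above X0 in 20 of 25 targets, against 25.8% of all genes. The median difference between X1 and X0 was 0.24 on the log2(RPKM + 0.5) scale in the targets and 0.01 over all genes. From X1 to X4 the median difference was 0.10 in the targets and 0.02 over all genes. A change in RNA per cell and a change in the mix of cells cannot be told apart in such bulk libraries.

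**Figure D1:**
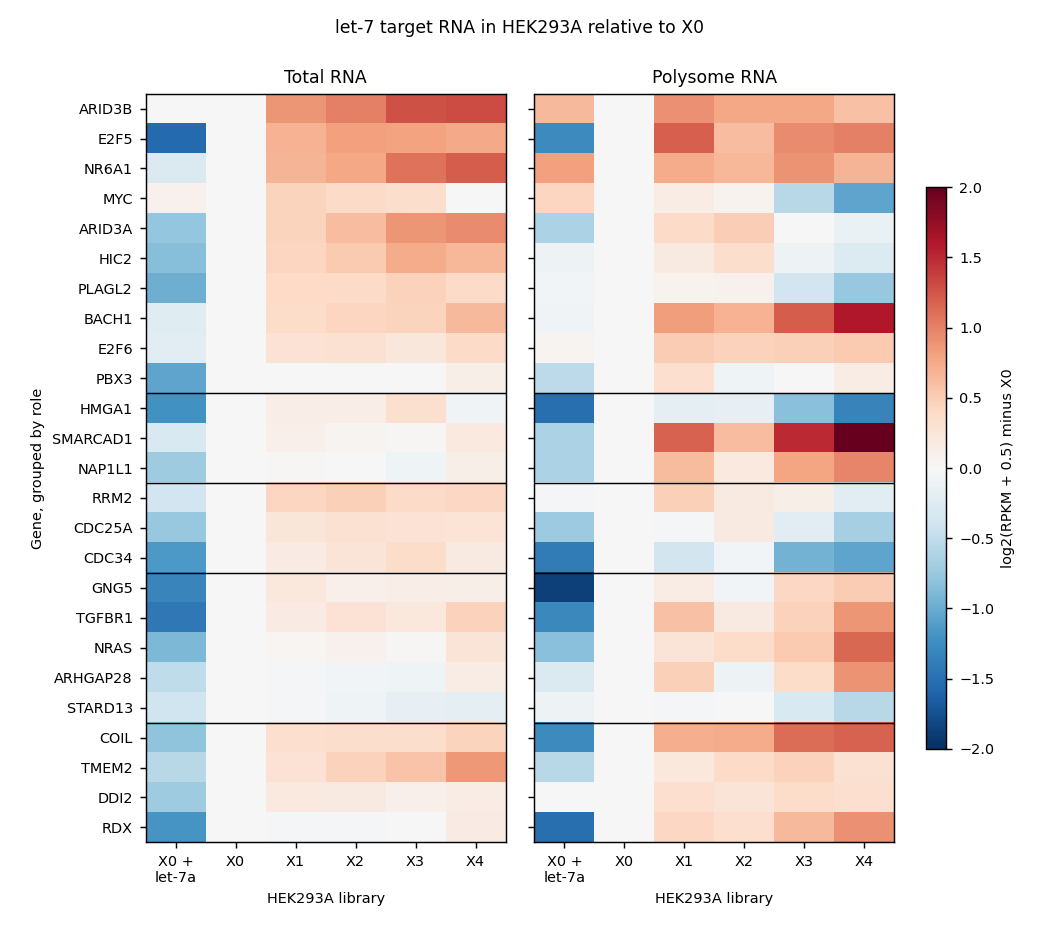
Total RNA (left) and polysome RNA (right) of the 25 targets in each HEK293A library, as the difference in log2(RPKM + 0.5) from untransfected X0, with rows grouped by role (transcription factors, chromatin, cell cycle, signalling, other). In total RNA most cells from X1 to X4 are red and most let-7a cells are blue, while polysome RNA at X4 runs both ways, with SMARCAD1 and BACH1 high and HMGA1, CDC34 and MYC low.

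A rise was tested as a straight line over the 5 levels with limma, with Benjamini-Hochberg adjustment over all 11342 genes. A step at X1 alone also gives such a line a slope above 0, so this test cannot tell a graded rise from a step. With the line 5 targets rose and 0 fell at an adjusted p under 0.05, where 1.48% of all genes rose and 0.758% fell. Before adjustment p was under 0.05 for 12 targets upwards and 0 downwards, where 10% and 8.01% of genes were, and edgeR's quasi-likelihood test on the recovered reads called 5 up and 0 down. The 5 that rose were ARID3A, ARID3B, NR6A1, HIC2 and TMEM2. Without X0 the fit called 0 targets and without X3 it called 2, and with each library centred it called 3. Upwards calls over all genes were 0.0265%, 0.758% and 0.926% in the same order. Without X0 the limma p before adjustment was still under 0.05 for 6 targets upwards.

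Among the 10 transcription factors, 4 rose and 6 did not pass the test. ARID3B, a DNA-binding protein of the ARID family, had 2.20, 4.45, 4.95, 6.03 and 6.18 RPKM at X0, X1, X2, X3 and X4. Its lowest value was X0 and each level lay above the one before, with a slope of 0.30 ± 0.05 per level (log2, SE, limma adjusted p = 0.031). Its paralogue ARID3A had 5.13, 7.18, 8.11, 9.94 and 10.3 RPKM, again higher at each level, with a slope of 0.23 ± 0.03 (limma adjusted p = 0.011). NR6A1, an orphan nuclear receptor of germ cells and early embryos, had 5.61, 9.27, 9.93, 12.5 and 13.6 RPKM. Its slope was 0.28 ± 0.04 per level (limma adjusted p = 0.013). HIC2, a zinc finger repressor, had 5.27, 7.27, 7.83, 9.13 and 8.65 RPKM, with its highest value at X3 and a slope of 0.16 ± 0.04 (limma adjusted p = 0.049). The call for HIC2 was lost with edgeR (adjusted p = 0.060) and with centring (limma adjusted p = 0.081).

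E2F5, MYC and PLAGL2 stood above X0 at X1 with little or no further increase at X4. E2F5, a repressive E2F factor, had 4.29, 7.25, 7.91, 7.89 and 7.61 RPKM at X0 to X4, so that the difference between X1 and X0 was 0.70 and that between X4 and X1 was 0.07 on the log2 scale. MYC, a driver of growth genes, had 40.9, 56.1, 53.4, 52.5 and 40.9 RPKM, so that X4 lay at the level of X0. PLAGL2, a zinc finger factor, had 25.3, 33.3, 33.1, 34.8 and 33.1 RPKM, with the 4 levels X1 to X4 close together. Of these, none passed the test of a line, with limma adjusted p = 0.15 for E2F5, 0.95 for MYC and 0.22 for PLAGL2.

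BACH1, a heme-sensing repressor, had 4.10, 5.41, 5.68, 5.73 and 6.72 RPKM at X0 to X4 and missed the threshold (limma adjusted p = 0.051), with differences of 0.36 between X1 and X0 and 0.29 between X4 and X1. E2F6 and PBX3, an E2F repressor and a homeodomain cofactor, differed by 0.29 and 0.01 on the log2 scale between X1 and X0.

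Outside the transcription factors, 1 target rose in total RNA. TMEM2, a cell surface protein of hyaluronan turnover, had 3.60, 4.48, 5.16, 5.56 and 6.97 RPKM at X0 to X4, each above the one before. Its slope was 0.20 ± 0.02 per level (limma adjusted p = 0.010), and its difference between X4 and X1, 0.58, was larger than that between X1 and X0, 0.28. The 3 cell cycle genes lay above X0 at all of X1 to X4 without passing the test. RRM2, the small subunit of ribonucleotide reductase, had 35.2, 47.4, 49.0, 46.0 and 47.0 RPKM, and the differences between X1 and X0 were 0.42 for RRM2, 0.24 for CDC25A and 0.17 for CDC34 on the log2 scale. The 3 chromatin genes HMGA1, SMARCAD1 and NAP1L1 differed by 0.02 to 0.13 between X1 and X0, and the 5 signalling genes NRAS, TGFBR1, GNG5, STARD13 and ARHGAP28 by -0.04 to 0.22. HMGA1 has 8 named pseudogenes in RefSeq, E2F6 and GNG5 have 4 each, NAP1L1, RRM2 and RDX have 3 each, COIL has 2, and ARID3B and TGFBR1 have 1 each, so their reads may be split between copies.

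**Figure D2:**
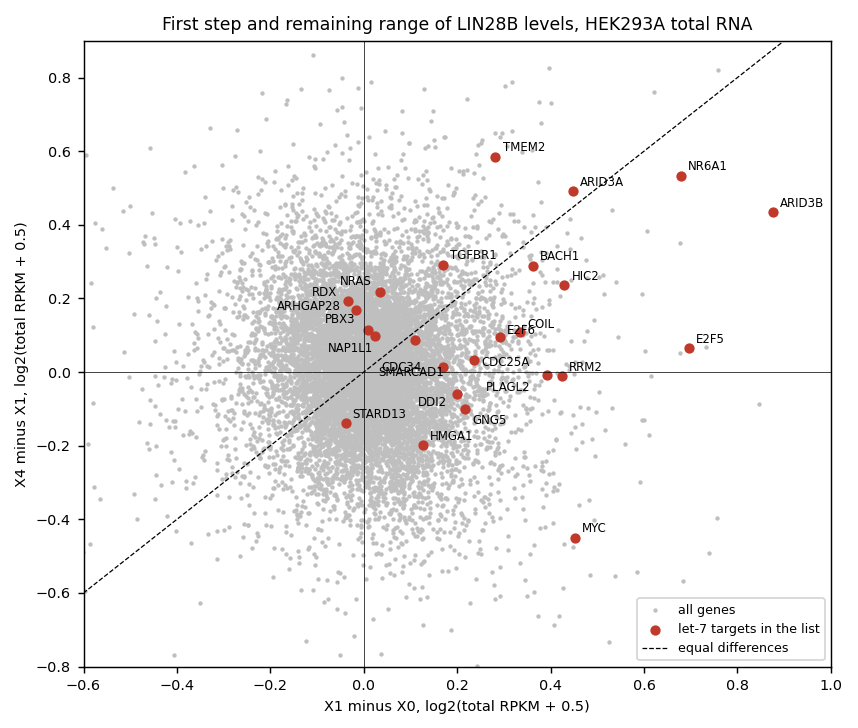
Difference in log2(total RPKM + 0.5) between X1 and X0 (horizontal) against that between X4 and X1 (vertical) in HEK293A, with all genes in grey, the 25 targets in red and a dashed line where both are equal. The axes leave out genes with larger differences. 22 targets lie right of 0, with ARID3B, E2F5 and NR6A1 farthest right, TMEM2 above the line and MYC far below it.

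A step at X1 was set against a graded rise by fitting a step and a slope over X1 to X4 together. The step exceeded 0 at a limma adjusted p under 0.05 in 1 target, ARID3B (adjusted p = 0.035), and fell below 0 in 0, where 0.0529% and 0.0265% of all genes did. At an unadjusted p of 0.05 the step was upwards in 13 targets and downwards in 0, where 4.4% and 3.01% of genes had one. The median step was 0.26 in the targets and 0.00 over all genes, on the log2 scale. The slope over X1 to X4 was called in 0 targets by limma, where 0.0265% of genes were called upwards and 0% downwards. Before adjustment p was under 0.05 for 6 targets upwards and 1 downwards, where 6.46% and 6.11% of genes were. The difference between step and slope, which is 0 for a straight line, was called in 0 targets by limma, where 0.0176% of genes were called upwards and 0% downwards. Before adjustment p was under 0.05 for 9 targets upwards and 0 downwards, where 3.48% and 2.5% of genes were, and its smallest adjusted p was 0.26, for E2F5. edgeR was not run for this model. The difference between X1 and X0 was larger than that between X4 and X1 in 17 of 25 targets, where 48.9% of all genes were so.

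With 1 library at X0 and 2 residual degrees of freedom per gene, these tests depended on single libraries. Without X4 the step was called upwards in 17 targets and step minus slope in 12, where 9.13% and 4.58% of all genes were called. Without X3 these counts were 8 and 3, where 0.652% and 0.168% of all genes were called, and without X1 the step was called in 2 targets and 0.229% of all genes.

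Ribosome occupancy, taken as log2 polysome RPKM minus log2 total RPKM after adding 0.5 to each, moved in both directions with LIN28B in HEK293A. By limma over 10428 genes, occupancy rose over X0 to X4 in 6 targets and fell in 10, where it rose in 20.7% and fell in 40.1% of all genes. The targets that rose were SMARCAD1, BACH1, NRAS, NAP1L1, COIL and RDX. The targets that fell were HMGA1, CDC34, ARID3A, PLAGL2, MYC, HIC2, CDC25A, ARID3B, RRM2 and NR6A1, among them all 3 cell cycle genes and 6 of the 10 transcription factors. The median slope was -0.03 per level in the targets and -0.07 over all genes. With each library centred, so that changes are relative to the typical gene, 8 targets rose and 7 fell, where 30.8% and 27.8% of all genes did. edgeR called 9 up and 7 down, where it called 30.1% and 31.1% of all genes. The targets' counts were near these shares of all genes. Without X4, 0 targets and 0 of all genes were called in either direction, and without X0 the counts were 0 up and 5 down.

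SMARCAD1, a chromatin remodeller, had the largest rise. Its occupancy was -1.38, -0.31, -0.81, 0.09 and 0.47 at X0, X1, X2, X3 and X4, with a slope of 0.41 ± 0.08 per level (SE, limma adjusted p = 0.003). Its polysome RNA was 3.49, 8.57, 5.66, 10.7 and 16.0 RPKM, while its total RNA stayed between 9.90 and 11.4 RPKM. X2 lay below X1, so the rise was not even. BACH1 occupancy was -0.76, -0.30, -0.49, 0.02 and 0.19 at X0 to X4. That of NRAS, a small GTPase of growth signalling, was -0.07, 0.15, 0.21, 0.43 and 0.82, higher at each level. That of COIL, the scaffold of Cajal bodies, was -0.08, 0.31, 0.31, 0.67 and 0.66. Slopes of these 3 genes were 0.22 ± 0.06, 0.21 ± 0.05 and 0.18 ± 0.05 per level, with limma adjusted p of 0.009, 0.008 and 0.015 in the same order. For all 4 genes X0 was the lowest library.

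HMGA1, an architectural chromatin protein, had the largest fall. Its occupancy was 0.31, -0.01, 0.01, -0.84 and -0.96 at X0 to X4, with a slope of -0.34 ± 0.06 per level (SE, limma adjusted p = 0.003). Its total RNA was 174, 190.1, 190.2, 218 and 165 RPKM, so the fall was in the polysome fraction. CDC34, a ubiquitin-conjugating enzyme of the cell cycle, had an occupancy of 0.62, 0.08, 0.30, -0.69 and -0.61. CDC25A, a phosphatase that activates cyclin-dependent kinases, had -0.07, -0.34, -0.20, -0.59 and -1.01. In both, X3 and X4 lay below the other 3 libraries.

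All 4 transcription factors whose total RNA rose also fell in occupancy, where 40.1% of all genes fell. The share that fell among all genes with rising total RNA was not counted. Polysome RNA at X0 and X4 was 1.11 and 1.92 RPKM for ARID3B and 2.42 and 4.15 RPKM for NR6A1, higher at X4. It was 3.74 and 3.38 RPKM for ARID3A and 2.96 and 2.36 RPKM for HIC2, lower at X4. ARID3A occupancy was -0.41, -0.48, -0.54, -1.30 and -1.48 at X0 to X4, and ARID3B occupancy was -0.75, -0.70, -0.99, -1.24 and -1.47. HIC2 occupancy was -0.74, -0.99, -0.92, -1.57 and -1.68. The fourth, NR6A1, fell with a limma adjusted p of 0.049, which became 0.30 with each library centred and 0.37 with edgeR. PLAGL2 occupancy was -0.86, -1.19, -1.15, -1.70 and -1.999, and MYC occupancy was -0.33, -0.63, -0.64, -1.23 and -1.39. In these 5 genes, NR6A1 left aside, the values at X3 and X4 were the lowest. Occupancy holds total RNA in its denominator, so an error in total RNA moves both measures in opposite directions. The slopes were -0.29 ± 0.06, -0.20 ± 0.05, -0.25 ± 0.06, -0.28 ± 0.06 and -0.27 ± 0.05 in the order given, and the limma adjusted p lay between 0.003 and 0.008.

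**Figure D3:**
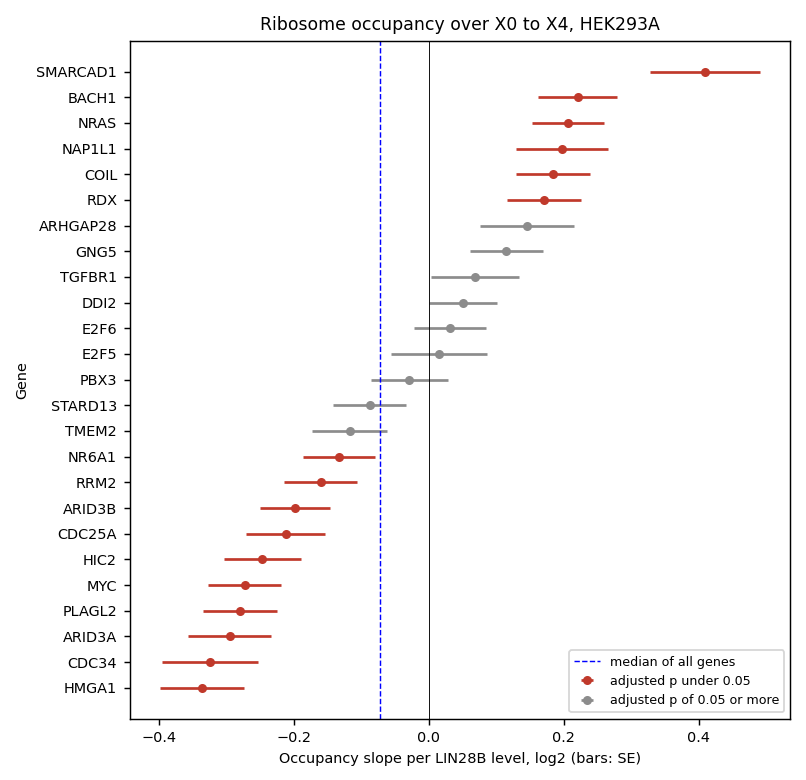
Slope of ribosome occupancy per LIN28B level (log2) of each of the 25 targets in HEK293A with its SE, red where the limma adjusted p was under 0.05, and the median of all genes as a dashed line. 6 red genes lie right of 0, led by SMARCAD1 at 0.41, and 10 lie left of it, led by HMGA1 at -0.34.

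The step in occupancy at X1 and the difference between step and slope were each called in 0 targets by limma. The step was called upwards in 0.00959% and downwards in 0.0384% of genes, and the difference in 0% and 0.0192%. Before adjustment p was under 0.05 for the step upwards in 1 target and downwards in 0, where 1.2% and 1.96% of genes were, and for the difference in 0 targets, where 0.364% and 0.777% of genes were. The slope over X1 to X4 was called upwards in 1 target, SMARCAD1, and downwards in 4, HMGA1, ARID3A, PLAGL2 and MYC, where it was called upwards in 1.87% and downwards in 15.4% of all genes. With each library centred these counts were 0 and 0. Over the 21 targets with a RefSeq promoter, the GC content of the promoter and the occupancy slope had a Spearman rho of -0.39. Over 8226 genes it was -0.26, and the genes share the same 10 libraries.

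With let-7a, most targets had less total RNA than in untransfected X0. Differences are relative to the median gene, which moved by 0.00 in total RNA and 0.15 in occupancy, and each group is 1 library, so no test was made. The let-7a libraries come from another table than X0 and were normalized separately. Total RNA was lower in 23 of the 25 targets. It was lower by over 1.5-fold in 15, where 8.33% of 11305 genes were, and higher by over 1.5-fold in 0, where 9.61% of genes were. The median difference was -0.76 on the log2 scale. The counting error of a target's difference was 0.02 to 0.08 (SE, log2), and the 95% intervals given next cover counting error only.

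E2F5 had the largest difference, with 1.14 RPKM with let-7a and 4.29 RPKM without, a log2 difference of -1.55 (interval -1.70 to -1.40). TGFBR1, the type I receptor of TGF-beta, had 2.15 RPKM with let-7a and 6.61 RPKM without, a difference of -1.42. GNG5, a G protein gamma subunit, had 25.2 RPKM with let-7a and 63.4 RPKM without, a difference of -1.31. On the scale of RPKM + 0.5, and relative to the median gene, these 3 were at 0.34 to 0.40 of the untransfected level.

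HMGA1 had 74.8 RPKM with let-7a and 174 RPKM without, a difference of -1.21. RDX, which links actin to the membrane, had 10.5 RPKM with let-7a and 24.4 RPKM without, a difference of -1.18. CDC34 had 22.3 RPKM with let-7a and 49.96 RPKM without, a difference of -1.15. PBX3 and PLAGL2 followed at 3.40 and 12.6 RPKM with let-7a, against 7.63 and 25.3 RPKM without, differences of -1.06 and -0.98. The intervals of these 5 genes all lay below -0.91.

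The 8 targets with the largest differences between X1 and X0 ranged widely with let-7a. ARID3B had 2.20 RPKM both with let-7a and without, a difference of 0.00 (interval -0.14 to 0.14). MYC had 43.6 RPKM with let-7a and 40.9 RPKM without, a difference of 0.09. NR6A1 and RRM2 differed by -0.29 and -0.39, ARID3A and HIC2 by -0.78 and -0.85, PLAGL2 by -0.98 and E2F5 by -1.55. TGFBR1, RDX and PBX3 differed by 0.17, -0.03 and 0.01 between X1 and X0. Both comparisons use the same X0 library, so their values are set side by side and were not correlated. The let-7a difference and the slope over X1 to X4, which share no library, had a Spearman rho of 0.10 over the 25 targets and -0.10 over 11303 genes.

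**Figure D4:**
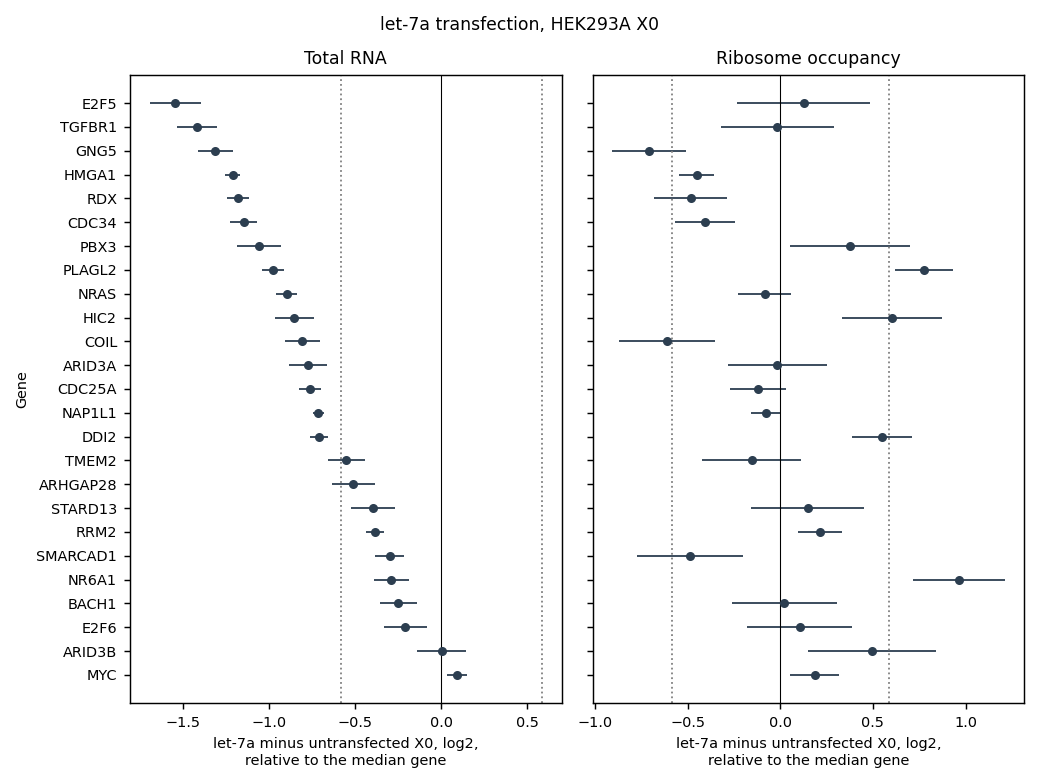
Difference between let-7a and untransfected X0 in HEK293A for total RNA (left) and ribosome occupancy (right), log2 and relative to the median gene, with 95% counting intervals and dotted lines at 1.5-fold. In total RNA 15 targets lie left of the lower dotted line and 0 right of the upper one, while in occupancy the targets lie on both sides of 0. ARHGAP28 has no occupancy value.

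Occupancy with let-7a moved less evenly. It could be set for 24 targets, since ARHGAP28 fell under 1 RPKM in the polysome fraction. It was lower by over 1.5-fold in 2 targets, where 11.4% of genes were, and higher in 3, where 10.8% of genes were, with a median of 0.00. GNG5 was at -0.71 (interval -0.91 to -0.51) and COIL at -0.61. NR6A1 was at 0.96 (interval 0.72 to 1.21), PLAGL2 at 0.77 and HIC2 at 0.60. Without centring on the median gene the counts were 0 lower and 5 higher, so both lower calls were lost. Where the mean of X0 and X1 stood in for X0, the counts were 4 lower and 3 higher. Of the targets without an HEK293A comparison, CCND1 and CCND2, the D-type cyclins, had 1.88 and 2.01 RPKM of total RNA with let-7a, TRIM71 had 0.97 RPKM, PXDN and GATM were under 0.1 RPKM and MYCN was listed at 0.

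Of 34 further let-7 targets fixed by name, 26 were in the HEK293A table. Leaving aside LIN28B, whose level defines X0 to X4, 2 rose in total RNA and 0 fell in the test of a line. These 2 were IGF2BP1 (limma adjusted p = 0.031) and FNDC3A (limma adjusted p = 0.048), where 1.48% of all genes rose and 0.758% fell. HMGA2 did not pass that test, yet it had 5.87, 16.7, 18.5, 19.7 and 18.8 RPKM at X0 to X4. Its step was 1.48 and its slope over X1 to X4 was 0.06 on the log2 scale, and the step of IGF2BP1 was 0.70. With let-7a, 8 of the 26, LIN28B among them, were lower in total RNA by over 1.5-fold, where 8.33% of all genes were. By the same fold 1 was higher, where 9.61% of all genes were. The largest difference, -2.36 for the embryonic chromatin protein HMGA2, exceeded that of every one of the 25 targets. In occupancy 5 of 23 rose and 10 fell, LIN28B among those that fell, near the 20.7% and 40.1% of all genes.

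In NIH3T3 the 20 targets gave no call in the test of a line over X0 to X4. Lin28b total RNA was 0.007, 0.011, 0.012, 0.083 and 0.354 RPKM at X0 to X4, from 1, 1, 1, 9 and 42 reads. Lin28b polysome reads were 1, 3, 4, 13 and 42 in the same order. X0, X1 and X2 did not differ in the total RNA reads and held few polysome reads. Whether reads of the transgene were counted under this mouse gene was not tested. The order of the LIN28B levels in NIH3T3 therefore rests mainly on the labels. The trend in total RNA was called in 0 of 20 targets and in 0 of 10348 genes by limma, and edgeR called 0 targets as well. Before adjustment p was under 0.05 for 2 targets upwards and 2 downwards, where 7.33% and 3.64% of genes were. All of X1 to X4 lay below X0 in 10 of 20 targets, where 36.9% of genes did, and above X0 in 3, where 36.1% did. The step at X1 was downwards in 3 targets and upwards in 0, where it was downwards in 13.7% and upwards in 15.9% of genes. The step was thus called in many genes of the whole table, with X0 as a single library.

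**Figure D5:**
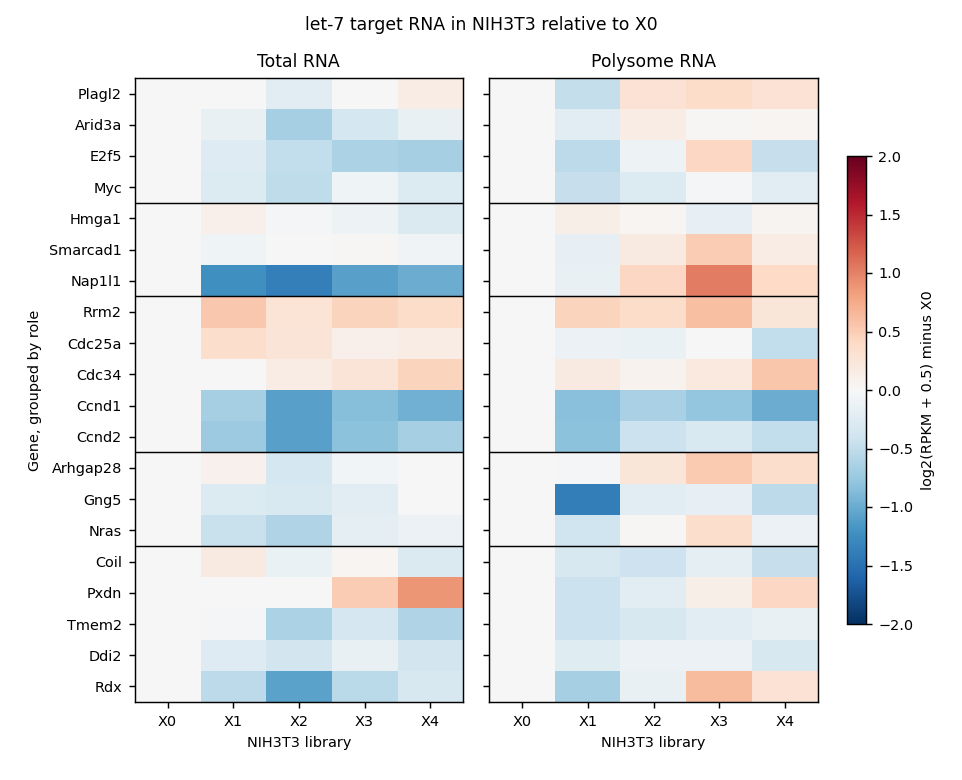
Total RNA (left) and polysome RNA (right) of the 20 targets that passed the filter in NIH3T3, as the difference in log2(RPKM + 0.5) from X0, with rows grouped by role. In total RNA Nap1l1, Ccnd1 and Ccnd2 are lower in all of X1 to X4, and Rrm2, Cdc25a and Cdc34 are higher in all of them.

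Nap1l1, a histone chaperone, had 41.9, 17.5, 15.9, 19.4 and 20.8 RPKM at X0, X1, X2, X3 and X4, so X0 alone was high. Its step was -1.32 ± 0.14 (log2, SE, limma adjusted p = 0.003) and its step minus slope was -1.42 ± 0.17 (limma adjusted p = 0.005). Ccnd2 had 8.90, 5.17, 3.91, 4.84 and 5.44 RPKM, with a step of -0.90 ± 0.22 (limma adjusted p = 0.026) and a step minus slope of -0.95 ± 0.26 (limma adjusted p = 0.047). Ccnd1 had 18.4, 11.4, 8.40, 10.0 and 9.24 RPKM, with a step of -0.79 ± 0.18 (limma adjusted p = 0.024). Step minus slope was downwards in 2 targets, where 9.67% of genes were, and upwards in 0, where 11.9% were. These counts changed when single levels were left out. X0 is 1 library, so they are not read as a result about the targets. Without the filter on low values the step was called in 1 target. Occupancy in NIH3T3 was called in 0 targets and in 0 of 9996 genes by limma, and in 0 targets by edgeR. Before adjustment p was under 0.05 for 1 target upwards and 0 downwards, where 2.31% and 2.86% of genes were. The other 11 targets, among them Arid3b, Nr6a1, Hic2 and Mycn, were under the filter.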

How the data were processed

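The 30 libraries gave 22 RNA and 8 small RNA columns, and 0 columns were left unused. The deposited RPKM values are scaled by gene length and library size, made by the authors; the submitters' processing notes name cutadapt, STAR, hg19 and mm10 with no role. No source used here gives the counter, annotation or strand setting. The deposited small RNA counts are raw, and per the file headers reads were trimmed and mapped with bowtie. Whole reads were recovered from the RPKM steps (tolerance 0.02 reads) for 11341 of 11342 HEK293A genes, 11333 of 11341 let-7a genes and 21039 of 21042 NIH3T3 genes above 0.

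Values were log2(RPKM + 0.5), which understates changes of low genes. Genes averaging 1 RPKM or more in each fraction used were fitted with limma 3.58.1 in R 4.3.3 over ranks 0 to 4, each cell line apart, with Benjamini-Hochberg adjustment over all genes. With 1 library a level, p-values of the trend measure the scatter around a line. In the fits of step and slope that scatter comes from X1 to X4 only, so it holds no error of the single X0 library. edgeR 4.0.16 on recovered reads was an alternative, as were other pseudocounts, filters, scalings and leaving out each level. The limma fits of the trend and the step, and edgeR's fit of the trend, were run on simulated total RNA counts. Occupancy, the slope over X1 to X4 and step minus slope were not tested in that way. Small RNA shares had exact binomial limits, with 3 counts as the limit at 0. Members and lists were chosen with earlier results of these data known. Genes named with every library's value were LIN28B, members past an adjusted p of 0.05 (up to 12 per comparison), the 8 with the largest difference between X1 and X0 and the 8 lowest with let-7a. The coordinates of the targets were not used here.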

Additional observations from a re-analysis of the deposited data

Results flagged for a closer look

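Among targets that passed the filter in both lines, for 7 results every level X1 to X4 lay on one side of X0 in HEK293A and on the other side in NIH3T3. The lines were normalized separately and the difference between them was not tested. In total RNA all of X1 to X4 lay above X0 in 25.8% of all genes in HEK293A and below X0 in 36.9% in NIH3T3. The share of all genes on opposite sides was not counted, so the 7 results are not read as particular to the targets. Values are the mean of X1 to X4 minus X0 on the log2 scale. In total RNA, ARID3A was at 0.72 in HEK293A and -0.33 in NIH3T3, TMEM2 at 0.55 and -0.40, E2F5 at 0.77 and -0.51, NRAS at 0.10 and -0.33, MYC at 0.30 and -0.29, and DDI2 at 0.16 and -0.29, with HEK293A given first for each gene. In total RNA, NR6A1, BACH1, TGFBR1 and PBX3, which were under the filter in NIH3T3, also lay on opposite sides. In ribosome occupancy, COIL was at 0.57 in HEK293A and -0.30 in NIH3T3. In NIH3T3 total RNA the step at X1 was called upwards in 15.9% and downwards in 13.7% of all genes, and the part of the single X0 library in these values was not tested. Groups of 1 library allow no search for outlying samples.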

How the results depend on the processing

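No paired analysis was possible because each level and fraction has 1 library. Counts are of targets called, and the share of all genes called also changed with the setting. For the HEK293A total RNA trend upwards it was 1.48% in the main fit, 1.06% with a minimum of 5 RPKM and 0.926% with centring. Where X0 was set against X1 to X4 in HEK293A total RNA, almost no gene was called upwards. X0 is 1 library there, so the 0 targets called say little about the targets. In HEK293A total RNA the trend upwards was called in 3 with a minimum of 5 RPKM, in 3 with each library centred and in 0 with X0 set against X1 to X4 as a group, against 5. The step upwards was called in 0 with a minimum of 5 RPKM, 0 with centring and 0 with quantile normalization, against 1. In HEK293A occupancy, setting X0 against X1 to X4 as a group called 0 up and 0 down, and a minimum of 5 RPKM called 6 down, against 6 up and 10 down. The slope over X1 to X4 was called upwards in 0 with a pseudocount of 0.1 RPKM, with no filter, with centring and with quantile normalization, and downwards in 2 with the pseudocount of 0.1 RPKM and in 0 with centring and quantile normalization, against 1 up and 4 down. In NIH3T3 total RNA, X0 as a group called 3 down for the trend, against 0. The step was called in 1 upwards with centring or quantile normalization, against 0, and downwards in 1 with no filter and 5 with quantile normalization, against 3. Step minus slope was called in 1 upwards with quantile normalization, against 0, and downwards in 0 with no filter, 4 with centring and 5 with quantile normalization, against 2. With let-7a, occupancy was lower past the fold in 1 target with a pseudocount of 1 RPKM or a minimum of 5 RPKM, 0 uncentred, 4 with the mean of X0 and X1 and 6 with a smaller fold as the limit, against 2, and higher in 5 uncentred and 6 with the smaller fold, against 3. The let-7a count of 15 lower in total RNA stayed within 1.5 times under the 6 settings tried.

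Leaving out 1 level at a time gave ranges of 0 to 7 targets for the HEK293A total RNA trend upwards, 1 to 17 for its step upwards, 0 to 7 and 0 to 1 for its slope upwards and downwards, and 0 to 12 for step minus slope upwards. In HEK293A occupancy the ranges were 0 to 7 upwards and 0 to 11 downwards for the trend, 0 to 1 for the step upwards, and 0 to 2 upwards and 0 to 10 downwards for the slope. In NIH3T3 they were 0 to 1 upwards and 3 to 6 downwards for the step in total RNA, 0 to 1 for its slope upwards, 0 to 1 upwards and 1 to 7 downwards for step minus slope, and 0 to 1 for the step in occupancy upwards. The fits of step and slope could not be made without X0. Leaving the 10 most abundant features out of the total gave let-7 shares of 0.4505% and 0.04455% in the knockout AGO2-bound and total libraries labelled let-7 and of 0.3344% and 0.01793% in those of X3. No called gene changed sign under any setting tried, and the cause of the changes in calls was not tested. The main limits are 1 library a level, 2 or 3 residual degrees of freedom per gene, and polysome libraries shallower than total RNA in HEK293A.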
